A study of Mus musculus with 12 samples.

Results

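The Serpina3 genes lie side by side on mouse chromosome 12, and 7 of them, of 43346 genes in the deposited table, are described here: Serpina3c, Serpina3f, Serpina3g, Serpina3h, Serpina3i, Serpina3m and Serpina3n. They were chosen by symbol, and selected on a measured value: the mean level of Serpina3m, much higher in D2-13B6 than in D2. That comparison is therefore described with no test. The study sequenced RNA from cultured embryonic stem cells of the mouse, in 4 groups of 3 libraries. B6 is the inbred strain C57BL/6J and D2 is DBA/2J. B6-13D2, labelled B6.D2-(rs30079041-rs51756099)/Bakr, has a D2 segment of chromosome 13 on the B6 background. D2-13B6, labelled D2.B6-(rs29224292-rs13469455)/Bakr in the sample labels and with rs51756099 as the end in the series text, has a B6 segment on the D2 background. All cells were grown in serum with LIF, the MEK inhibitor PD0325901 and the GSK3 inhibitor CHIR99021. The protocol describes cultures of 1 cell line for each strain, so strain and line cannot be told apart, and the p-values measure only the spread between cultures. The labels give B6 replicate 3 another line name than the other B6 replicates, name the D2 line in different ways, and call the cultures technical replicates. The chromosome 12 cluster lies outside the segment named in the strains.

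Serpins are a family of protease inhibitors. A typical member exposes a reactive centre loop that the target protease cuts. The cut loop then inserts into the body of the serpin and traps the enzyme. Humans have a single SERPINA3 gene, which encodes antichymotrypsin, a plasma protein of the acute phase response, whereas in the mouse the gene has been copied many times in tandem. The mouse copies differ most in the loop, and several are made mainly in liver or in activated immune cells.

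The stretch of coding sequence that leads into the end of the gene and holds the loop region shows how far the copies have moved apart. It is bases 1090 to 1173 of the 1254-base Serpina3m coding sequence in GENCODE M21, and is printed for the 6 protein-coding genes because the loop is what sets the target of a serpin. Capitals mark the bases that differ from Serpina3m after alignment.
Serpina3m: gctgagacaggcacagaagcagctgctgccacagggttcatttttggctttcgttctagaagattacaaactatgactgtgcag
Serpina3c: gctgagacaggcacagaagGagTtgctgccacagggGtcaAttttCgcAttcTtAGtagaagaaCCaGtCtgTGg
Serpina3n: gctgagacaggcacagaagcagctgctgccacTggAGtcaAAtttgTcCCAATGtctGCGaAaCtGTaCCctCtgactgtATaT
Serpina3i: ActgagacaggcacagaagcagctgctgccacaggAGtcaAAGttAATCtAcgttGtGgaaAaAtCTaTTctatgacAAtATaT
Serpina3f: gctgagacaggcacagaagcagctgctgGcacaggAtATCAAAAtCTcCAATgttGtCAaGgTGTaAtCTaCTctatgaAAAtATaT
Serpina3g: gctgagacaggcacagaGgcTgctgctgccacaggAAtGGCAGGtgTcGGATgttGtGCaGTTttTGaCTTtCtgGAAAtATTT
The left part of the stretch is nearly the same in the 6 genes, and the capitals gather in the right part. Serpina3c differed from Serpina3m at 15 of 75 aligned bases. Serpina3i differed at 24 of 84 and Serpina3n at 25 of 84. Serpina3f differed at 30 bases and holds 3 inserted bases, also in capitals, and Serpina3g differed at 35 bases. Over the longer alignment, which takes the coding sequence or, for the pseudogene Serpina3h and the short Serpina3g model, the transcript, identity between pairs ran from 79.1% for Serpina3h and Serpina3m to 91.2% for Serpina3f and Serpina3i.

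Near-identical copies can share reads, which bears on every value below. Of the 1510 stretches of 150 bases, the read length, in the Serpina3m transcript, 5 occurred in another gene, and that gene was Serpina3k, which was at 0 in every library. The transcripts of the other 6 genes held no such stretch. Stretches of 50 bases found in another gene made up 4.25% of those in Serpina3c and 24.4% of those in Serpina3h. All 7 genes had whole numbers of counts in every library (within 1e-06), so the estimated counts divided no read between them and another gene. Whether the counting took account of sequence differences between the strains is not given in the sources used here.

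Libraries held 22184196 to 36411799 expected counts, and replicates of a group had a correlation of at least 0.9878 over genes. Levels are given as CPM, counts scaled to a common library total, as mean ± SD over 3 libraries. The tests are edgeR quasi-likelihood tests over 17148 genes with a Benjamini-Hochberg adjusted p under 0.05. Of the 7 genes, 5 passed the filter on low counts. Serpina3c and Serpina3f did not. Serpina3g passed only through the D2 libraries, so it had to differ where D2 was compared, and Serpina3i passed mainly through B6 and B6-13D2.

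Serpina3m, at chr12:104338486-104394257 on the plus strand (GRCm38; ENSMUSG00000079012), was the most abundant of the genes in B6, B6-13D2 and D2-13B6 and was low in D2. Its gene model overlaps those of Serpina3k and Serpina3l-ps, and both of these were at 0 in all 12 libraries. The B6 libraries held 167, 192 and 185 Serpina3m counts, or 7.34, 8.06 and 7.93 CPM. The B6-13D2 libraries held 146, 188 and 145 counts, or 5.05, 6.31 and 5.47 CPM. The 3 B6 libraries lay above the 3 B6-13D2 libraries, with no overlap. The D2 libraries held 21, 24 and 14 counts, or 0.875, 0.667 and 0.637 CPM. The D2-13B6 libraries held 509, 497 and 456 counts, or 14, 13.8 and 15.5 CPM. The groups thus ran from D2 through B6-13D2 and B6 to D2-13B6, and no neighbouring groups in that order overlapped.

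Serpina3m fell in B6-13D2 relative to B6, the comparison in which only the segment was exchanged on the B6 side and which uses no library of the one that picked the gene. The means were 5.61 ± 0.639 and 7.78 ± 0.386 CPM, a log2 fold change of -0.47 ± 0.10 (SE) with an edgeR adjusted p of 0.000782. Without B6 replicate 3, the library with another line name, it was -0.45 with an edgeR adjusted p of 0.0035. Serpina3m was the 1 gene called of 5 tested here, whereas 58.3% of all tested genes were called, 25.4% higher and 32.9% lower. It was likewise the 1 gene of the 5 whose libraries did not overlap between these groups, which held for 63.2% of all tested genes. In the same comparison all 12 fibroblast markers were lower, with a median log2 fold change of -1.54, and 9 of 10 stem cell markers were higher, with a median of 0.25 over the list; their part in the Serpina3m value was not tested. In the reverse exchange, the mean was 0.726 ± 0.129 CPM in D2 and 14.4 ± 0.964 CPM in D2-13B6, a ratio of 19.8 and a log2 fold change of 4.31 ± 0.14, given as a description. The direction of that value is the one on which the gene was selected, so only the B6-13D2 against B6 comparison bears on a segment effect, and the difference between the sizes was not tested. D2 lay below B6 by a log2 fold change of -3.42 ± 0.15, also as a description. D2-13B6 lay above B6 at 0.89 ± 0.09, so that the line with D2 background and B6 segment had a higher level than either parental strain.

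**Figure D1:**
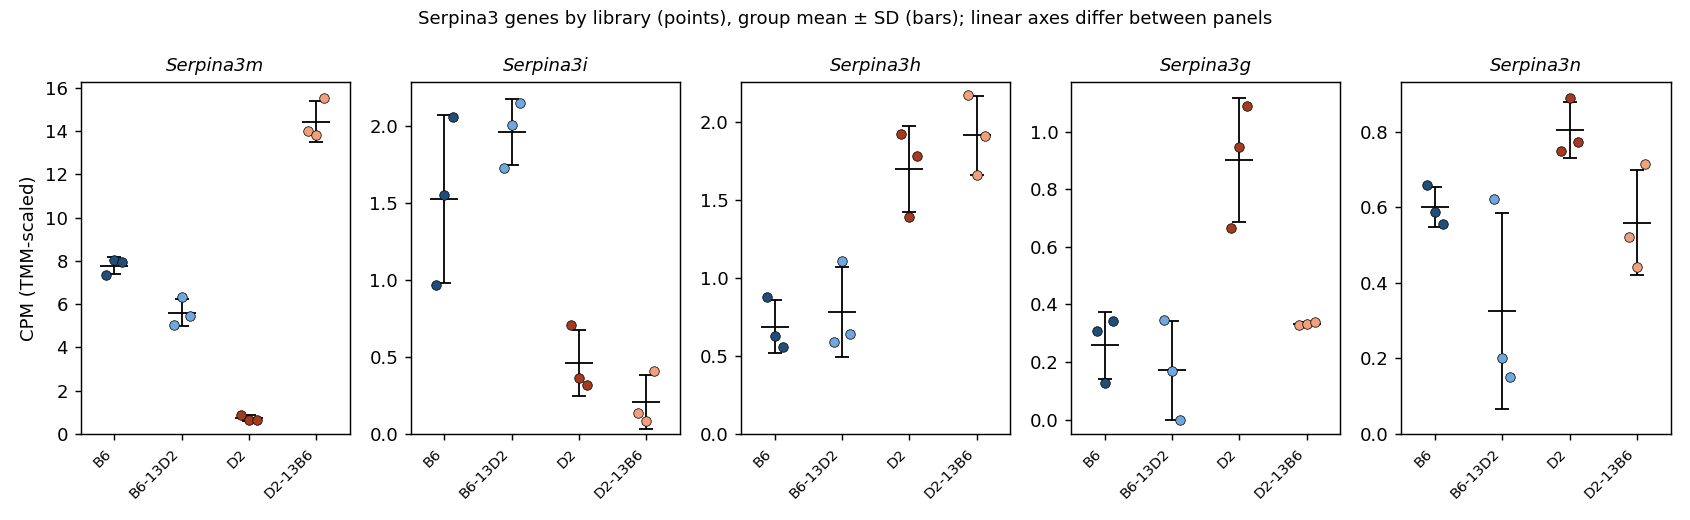
CPM of the 5 Serpina3 genes that passed the filter, 1 panel each with its own linear axis; points are the 12 libraries and bars the group mean ± SD (n = 3). Serpina3m ranged from 0.637 CPM in a D2 library to 15.5 in a D2-13B6 library, while Serpina3i and Serpina3h separated by background strain.

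Serpina3i, at chr12:104263122-104269372 on the plus strand (ENSMUSG00000079014), was higher on the B6 background whichever segment was present. The B6 libraries held 22, 37 and 48 counts, or 0.966, 1.55 and 2.06 CPM. The B6-13D2 libraries held 50, 60 and 57 counts, or 1.73, 2.01 and 2.15 CPM. Both groups of B6 background overlapped. The D2 libraries held 17, 13 and 7 counts, or 0.708, 0.362 and 0.319 CPM. The D2-13B6 libraries held 5, 3 and 12 counts, or 0.137, 0.083 and 0.408 CPM. The groups of D2 background overlapped with each other and lay below every library of B6 background. Summed stem cell markers split the same way, from 5470 CPM up on the B6 background and up to 4720 CPM on the D2 background. In D2-13B6 against B6, 7 of those 10 markers were called lower and 1 higher. Their part in the Serpina3i values was not tested.

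Serpina3i fell in D2 relative to B6, with means of 0.463 ± 0.214 and 1.53 ± 0.546 CPM and a log2 fold change of -1.74 ± 0.40 (edgeR adjusted p = 0.00113). It also fell in D2-13B6 relative to B6, at -2.92 ± 0.44 (edgeR adjusted p = 1.77e-05), and at -3.74 without D2-13B6 replicate 3. B6-13D2 was higher than D2 by 2.10 ± 0.38 (edgeR adjusted p = 8.32e-05). The 2 comparisons within a background gave smaller values. B6-13D2 against B6 was 0.36 ± 0.33 (edgeR adjusted p = 0.363), and D2-13B6 against D2, described only, was -1.18 ± 0.52. The latter became -2.01 without D2-13B6 replicate 3, the library with 12 of the group's 20 counts.

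Serpina3h, at chr12:104247905-104253669 on the plus strand (ENSMUSG00000041449), is annotated as a transcribed unprocessed pseudogene, a gene copy that is still transcribed. It showed the opposite order, with higher levels on the D2 background. The B6 libraries held 20, 15 and 13 counts, or 0.879, 0.63 and 0.557 CPM. The B6-13D2 libraries held 17, 33 and 17 counts, or 0.588, 1.11 and 0.642 CPM. These groups overlapped, and B6-13D2 replicate 2 was the highest library on the B6 background. The D2 libraries held 46, 50 and 39 counts, or 1.92, 1.39 and 1.78 CPM. The D2-13B6 libraries held 79, 60 and 56 counts, or 2.17, 1.66 and 1.91 CPM. They overlapped with each other and lay above every library of B6 background.

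Serpina3h rose in D2 relative to B6, from 0.688 ± 0.169 to 1.69 ± 0.272 CPM, a log2 fold change of 1.28 ± 0.28 (edgeR adjusted p = 0.000792). It rose in D2-13B6 relative to B6 by 1.47 ± 0.27 (edgeR adjusted p = 0.00016). It was lower in B6-13D2 than in D2, at -1.09 ± 0.27 (edgeR adjusted p = 0.00128). Within a background the values were 0.19 ± 0.31 for B6-13D2 against B6 (edgeR adjusted p = 0.622) and 0.19 ± 0.24 for D2-13B6 against D2, described only. The former turned to -0.16 without B6-13D2 replicate 2. The group means of Serpina3h had the order of the summed macrophage and blood markers, although its groups overlapped within each background. That sum was 34.5 to 38.2 CPM in B6, 48.7 to 53.4 in B6-13D2, 74.3 to 81.5 in D2 and 118 to 127 in D2-13B6. Of the 7 markers, 2 were called in B6-13D2 against B6, both higher, while the means of Ptprc and Tyrobp were lower. The part of these cells was not tested. Across the 12 libraries, log2 CPM of Serpina3h and Serpina3i had a Pearson r of -0.83, a description over libraries that fall into the same 4 groups.

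Serpina3g, at chr12:104236245-104241939 on the plus strand (ENSMUSG00000041481), encodes Spi2A, an intracellular serpin known from activated lymphocytes and macrophages. It was highest in D2. The D2 libraries held 16, 34 and 24 counts, or 0.666, 0.946 and 1.09 CPM. The B6 libraries held 7, 3 and 8 counts, or 0.307, 0.126 and 0.343 CPM. The B6-13D2 libraries held 10, 5 and 0 counts, or 0.346, 0.168 and 0 CPM, where a count of 0 allows up to 0.113 CPM in that library (3 counts, counting error only). The D2-13B6 libraries held 12, 12 and 10 counts, or 0.329, 0.332 and 0.34 CPM. The D2 libraries stood above all others, and the other 3 groups overlapped.

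Serpina3g had means of 0.901 ± 0.216 CPM in D2 and 0.259 ± 0.116 CPM in B6, a log2 fold change of 1.79 ± 0.52, and B6-13D2 against D2 gave -2.34 ± 0.53. The latter was -3.29 without B6-13D2 replicate 1 and ran to -1.79 over the other libraries left out. Since it passed the filter through D2 alone, these values are a description and no p is given for them. The summed fibroblast markers were also highest in D2, at 15100 to 18000 CPM, and lowest in B6-13D2, at 3290 to 3380 CPM, and macrophage and blood markers, at 74.3 to 81.5 CPM in D2, were higher there than in B6 and highest in D2-13B6, at 118 to 127 CPM, where Serpina3g was at 0.334 CPM; their part in the Serpina3g values was not tested. D2-13B6 against D2 gave -1.42 ± 0.46, described only. The remaining comparisons were -0.55 ± 0.66 for B6-13D2 against B6 (edgeR adjusted p = 0.494; -1.5 without B6-13D2 replicate 1, with adjusted p = 0.114, and -0.01 without B6-13D2 replicate 3) and 0.37 ± 0.57 for D2-13B6 against B6 (edgeR adjusted p = 0.607).

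Serpina3n, at chr12:104406729-104414329 on the plus strand (ENSMUSG00000021091), encodes a secreted inhibitor of granzyme B and leukocyte elastase and is a marker of reactive glia and of the acute phase. Its levels were low in all groups. The B6 libraries held 15, 14 and 13 counts, or 0.659, 0.588 and 0.557 CPM. The D2 libraries held 18, 32 and 17 counts, or 0.75, 0.89 and 0.774 CPM. The B6-13D2 libraries held 18, 6 and 4 counts, or 0.623, 0.201 and 0.151 CPM. The D2-13B6 libraries held 19, 16 and 21 counts, or 0.521, 0.443 and 0.714 CPM. The D2 libraries lay above all others, and the other 3 groups overlapped, with B6-13D2 replicate 1 apart from the other B6-13D2 replicates.

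Serpina3n was lower in B6-13D2 than in D2, with means of 0.325 ± 0.259 and 0.804 ± 0.0749 CPM and a log2 fold change of -1.30 ± 0.41 (edgeR adjusted p = 0.00866). Without B6-13D2 replicate 2 that value was -1.03 with an edgeR adjusted p of 0.0508, and it was -2.16 without B6-13D2 replicate 1. In B6-13D2 against B6 it was -0.87 ± 0.44 (edgeR adjusted p = 0.0982), and without B6-13D2 replicate 1 it was -1.73 with an edgeR adjusted p of 0.00337. D2 against B6 gave 0.43 ± 0.39 (edgeR adjusted p = 0.354) and D2-13B6 against B6 gave -0.12 ± 0.39 (edgeR adjusted p = 0.817). D2-13B6 against D2, described only, gave -0.55 ± 0.37. The mean level had the group order of the summed fibroblast markers (D2, B6, D2-13B6, B6-13D2), whose part was not tested. Between B6 and D2-13B6, where Serpina3n did not pass the test, the 12 markers split, with 5 called higher and 6 lower in D2-13B6. Across the 12 libraries Serpina3n and Serpina3g had a Pearson r of 0.83, given as a description.

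Serpina3c and Serpina3f were at the limit of detection. Serpina3c, at chr12:104146382-104153870 on the minus strand (ENSMUSG00000066361), is known as a kallikrein-binding protein, and had 1 count in B6 replicate 3, 2 counts in D2 replicate 3 and 0 in the other 10 libraries. Serpina3f, at chr12:104214544-104221129 on the plus strand (ENSMUSG00000066363), had 2, 1 and 2 counts in D2, 0, 1 and 4 counts in D2-13B6, and 0 in all 6 libraries of B6 background. A count of 0 allows 0.101 to 0.132 CPM in each of those 6 libraries. The D2 libraries did not overlap with B6 or B6-13D2, but at 1 to 2 counts a library they were under the floor of 3 counts, so no fold is given, and the gene was not tested. Of the other Serpina3 genes in the table, Serpina3e-ps had 15 counts in all, 10 of them in D2-13B6, and Serpina3a had 1 count. Serpina3b, Serpina3d-ps, Serpina3j, Serpina3k and Serpina3l-ps were at 0 in every library.

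The counts of called genes in the cluster, few as they are, are read against the share called among all genes. Serpina3g, which had to differ from D2 by the filter, is left out of the counts with D2. In D2 against B6, 2 of 3 genes were called, Serpina3h higher and Serpina3i lower, beside 60% of all genes (29.8% higher, 30.3% lower). All 3 had groups that did not overlap, beside 62% of all genes. In D2-13B6 against B6 the count was 2 of 4, with Serpina3h higher and Serpina3i lower, beside 59% (24.5% higher, 34.6% lower), and the same 2 had groups without overlap, beside 65.2%. In B6-13D2 against D2 it was 3 of 3, Serpina3i higher and Serpina3h and Serpina3n lower, beside 74.6% (36.7% higher, 38% lower), and all 3 had groups without overlap, beside 75.5%. Serpina3m was left out of these 3 counts because they share libraries with the comparison that picked it. In D2-13B6 against D2, where nothing in the cluster was tested, 57.3% of all genes were called (27.6% higher, 29.7% lower). Groups without overlap were seen for 62.9% of all genes. Serpina3m, picked on this difference, and Serpina3g, for its filter, are not set beside that share. Of Serpina3h, Serpina3i and Serpina3n, only Serpina3n had groups without overlap. Comparisons that share a group are not independent of each other.

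**Figure D2:**
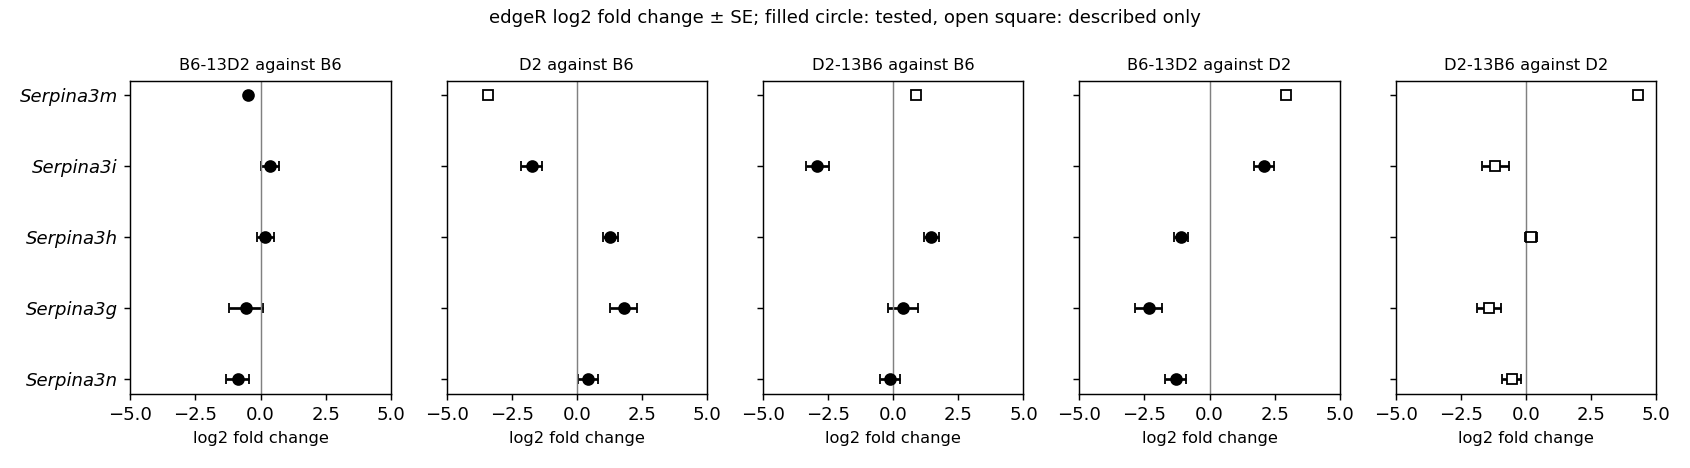
edgeR log2 fold change ± SE (x axis, log2 scale) of the 5 genes in each comparison, first group minus second; filled circles were tested and open squares are described only, as are the Serpina3g circles in comparisons with D2. Values of Serpina3i and Serpina3h are far from 0 between backgrounds, at -1.74 and 1.28 in D2 against B6, and nearer to 0 within a background.

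Set side by side per length, the genes did not keep 1 order of abundance. On the CPM per kb of transcript scale, Serpina3m led in B6 at 4.69 ± 0.233, followed by Serpina3i at 0.695 ± 0.248 and Serpina3h at 0.555 ± 0.136. In D2 the pseudogene Serpina3h led at 1.36 ± 0.22, above Serpina3g at 0.5 ± 0.12 and Serpina3m at 0.438 ± 0.0778. In D2-13B6 Serpina3m stood at 8.68 ± 0.581 and Serpina3h at 1.54 ± 0.204. The ranges of mean ± SD overlapped for Serpina3i and Serpina3h in B6, and in D2 for Serpina3g, Serpina3m and Serpina3n, the last at 0.39 ± 0.0363.

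Serpina3m made up most of the summed level in B6, B6-13D2 and D2-13B6, and Serpina3h held the largest share in D2, at 32.5% to 38.3%. The 7 genes together reached 10.9 ± 0.676 CPM in B6, 8.85 ± 0.82 in B6-13D2, 4.69 ± 0.367 in D2 and 17.5 ± 1.4 in D2-13B6. Without Serpina3m the sums were 3.09 ± 0.409, 3.24 ± 0.276, 3.96 ± 0.299 and 3.07 ± 0.485 CPM, much closer to each other. Serpina3m held 69% to 73.6% of the counts of the 7 genes in B6, 60.6% to 65% in B6-13D2, 13.3% to 17.5% in D2 and 81.6% to 84.4% in D2-13B6.

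**Figure D3:**
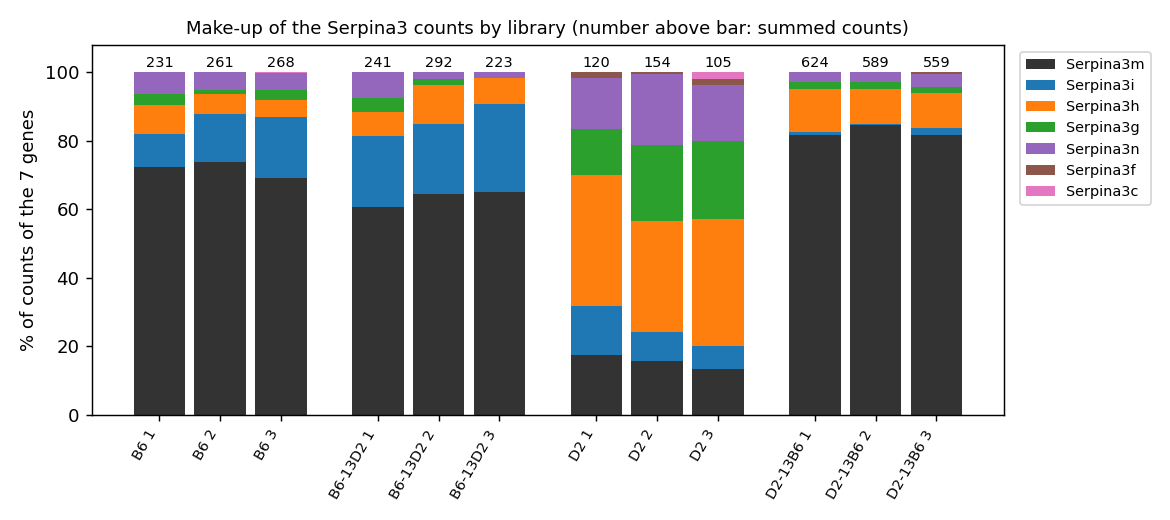
Share of each gene in the summed counts of the 7 Serpina3 genes (y axis, %), 1 bar per library, with the summed count above the bar. Serpina3m makes up at most 17.5% of the D2 bars and at least 60.6% of all others.

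Promoter windows from RefSeq (GRCm38.p6; 250 bases before to 50 after the start) were given for 5 of the 7 genes, as 6 windows. Those of Serpina3i and Serpina3g are printed because their mean levels lay in opposite order in the parental strains, and that of Serpina3n because it holds a different motif. Capitals mark the matches.
Serpina3i, chr12:104262872-104263171, plus strand: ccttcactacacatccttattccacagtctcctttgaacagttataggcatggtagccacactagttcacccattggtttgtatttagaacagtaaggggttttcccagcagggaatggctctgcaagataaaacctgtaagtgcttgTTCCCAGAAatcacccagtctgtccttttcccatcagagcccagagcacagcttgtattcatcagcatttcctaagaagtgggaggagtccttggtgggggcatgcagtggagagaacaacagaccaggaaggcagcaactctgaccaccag
Serpina3g, chr12:104235897-104236196, plus strand: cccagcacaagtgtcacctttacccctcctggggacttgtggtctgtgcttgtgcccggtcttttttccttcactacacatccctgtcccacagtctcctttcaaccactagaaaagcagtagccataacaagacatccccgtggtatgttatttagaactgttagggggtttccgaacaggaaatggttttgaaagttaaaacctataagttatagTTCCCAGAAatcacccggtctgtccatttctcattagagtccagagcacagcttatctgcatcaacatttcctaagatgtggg
Serpina3n, chr12:104406458-104406757, plus strand: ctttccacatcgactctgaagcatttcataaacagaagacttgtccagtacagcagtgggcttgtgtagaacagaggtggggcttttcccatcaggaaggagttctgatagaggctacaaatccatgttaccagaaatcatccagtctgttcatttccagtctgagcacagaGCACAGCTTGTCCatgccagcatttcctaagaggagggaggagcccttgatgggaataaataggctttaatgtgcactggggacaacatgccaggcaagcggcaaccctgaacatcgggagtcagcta
The letters TTCNNNGAA, a pattern bound by STAT factors, occurred in the windows of Serpina3f, Serpina3g and Serpina3i, and in 7.87% of 22983 promoter windows of all genes. In Serpina3i and Serpina3g the match was the same, TTCCCAGAA, and lay before the start. The glucocorticoid receptor pattern occurred in Serpina3c and Serpina3n, in both as GCACAGCTTGTCC, and in 0.431% of all windows. The windows of Serpina3c and Serpina3n were 93.5% identical, so their match is 1 shared sequence. TTGCNNAA, bound by C/EBP factors, occurred in both Serpina3f windows and in 10.2% of all windows. TATAAA occurred in Serpina3c and in 1 of the Serpina3f windows, against 12% of all windows. The interferon response pattern occurred in none of the 6 windows, against 3.38%. Both strands were searched, and the patterns did not overlap each other. Each of the 6 windows had at most 5 CG dinucleotides, as did 33.5% of all windows, whose median was 12.

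The genes whose levels followed that of Serpina3m most closely lay on other chromosomes. Over 12 libraries and among 14008 tested genes whose mean log2 CPM was 0 or more, the highest Pearson r with Serpina3m was 0.980, for Nodal, a signalling ligand of the TGF-beta family. Nodal had 80.7 ± 4.12 CPM in B6, 72.6 ± 3.47 in B6-13D2, 53.3 ± 2.66 in D2 and 85 ± 1.7 in D2-13B6, the group order of Serpina3m over a much narrower range. Next came Slc7a3, an amino acid transporter, at 0.979, and Tug1, Morc2a and Rhbdf2, each at 0.978. Tug1 is a long noncoding RNA and Morc2a is a chromatin ATPase, and their gene models overlap at 1 end on chromosome 11. Reads from that short overlap cannot be told apart where counting does not use strand. Rhbdf2 encodes an inactive rhomboid protease. In all, 172 genes, or 1.23%, had an r of at least 0.9. The libraries share 4 groups, so these values describe the group pattern and carry no test.

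On either side of the cluster the nearest tested genes followed the background strain, as Serpina3i and Serpina3h did. Gsc, which encodes the homeobox factor goosecoid and lies 56.9 kb beyond Serpina3n, had 2.61 ± 0.615 CPM in B6, 3.42 ± 0.448 in B6-13D2, 0.933 ± 0.108 in D2 and 1.03 ± 0.086 in D2-13B6. It fell in D2 relative to B6 by a log2 fold change of -1.48 ± 0.22 (edgeR adjusted p = 1.37e-05), and D2-13B6 against D2 gave 0.16 ± 0.23. Ppp4r4, a regulatory subunit of protein phosphatase 4 that lies 533 kb before Serpina3c, had 1.18 ± 0.256 CPM in B6, 1.51 ± 0.159 in B6-13D2, 3.33 ± 0.222 in D2 and 2.86 ± 0.352 in D2-13B6, and rose in D2 relative to B6 (edgeR adjusted p = 2.12e-06). Of 14 other genes tested within 1 Mb, 10 were called in D2 against B6, where 60% of all tested genes were, and 6 in B6-13D2 against B6, where 58.3% were. In D2-13B6 against D2 their log2 fold changes ran from -1.80 to 1.57; the Serpina3m value there, 4.31, is the one the gene was selected on, so its place outside that range is no finding.

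**Figure D4:**
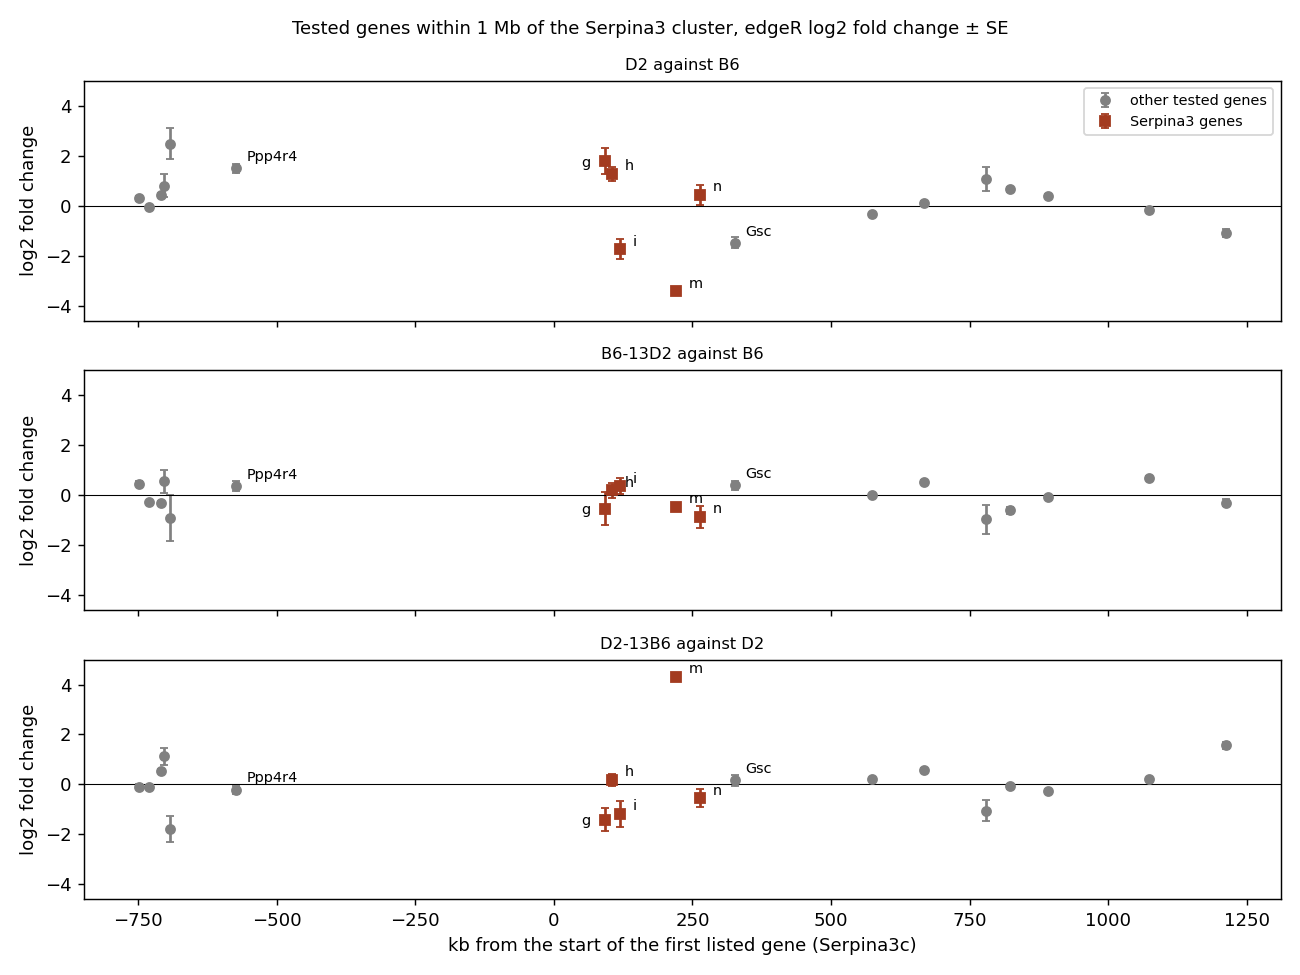
edgeR log2 fold change ± SE (y axis, log2 scale) of the Serpina3 genes (squares, last letter given) and of the 14 other genes tested within 1 Mb (circles), by distance from the start of Serpina3c in kb; 1 panel per comparison. In D2-13B6 against D2 the neighbours lie between -1.80 and 1.57, and Serpina3m at 4.31 is the value on which the gene was selected.

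Related genes from lists gave a view of the rest of the pathway. None of the 18 other clade A serpins listed, which include the alpha-1-antitrypsin genes, passed the filter, and their summed level was 0.164 to 0.659 CPM. Of 34 serpins of other clades, 15 were tested. In B6-13D2 against B6, 2 of them rose and 10 fell, with a median log2 fold change of -1.18 against -0.04 over all genes, of which 25.4% rose and 32.9% fell. Among the called genes Serpinb6c was the highest at 0.81 ± 0.10 (edgeR adjusted p = 1.1e-06) and Serpinb8 the lowest at -1.72 ± 0.26 (edgeR adjusted p = 1.55e-05). In D2 against B6, 9 rose and 4 fell (29.8% and 30.3% of all genes), with Serpinb8 the highest called at 1.16 ± 0.20 (edgeR adjusted p = 7.53e-05) and Serpinb1a the lowest at -0.91 ± 0.09 (edgeR adjusted p = 2.12e-07). In D2-13B6 against B6, 8 fell and 0 rose (34.6% and 24.5% of all genes), and Serpinb9, an inhibitor of granzyme B, was the lowest called at -0.66 ± 0.09 (edgeR adjusted p = 9.67e-06). In B6-13D2 against D2, 3 rose and 10 fell (36.7% and 38% of all genes).

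Of 28 listed proteases, known targets of serpins of this family together with relatives of such targets, 15 were tested. In B6-13D2 against B6, 1 was higher and 11 were lower, beside 25.4% and 32.9% of all genes, with a median log2 fold change of -0.57 against -0.04 over all genes. In D2 against B6, 11 were higher and 2 lower, beside 29.8% and 30.3%, with a median of 0.41 against 0.01. Klk1, a tissue kallikrein, had 2.78 ± 0.136 CPM in B6, 4.27 ± 0.339 in B6-13D2, 0.561 ± 0.174 in D2 and 1.07 ± 0.174 in D2-13B6. It rose in B6-13D2 relative to B6 by 0.62 ± 0.17 (edgeR adjusted p = 0.0039) and fell in D2 relative to B6, at -2.25 ± 0.22 (edgeR adjusted p = 9.98e-08). In D2-13B6 against B6, 2 proteases were higher and 8 lower, beside 24.5% and 34.6% of all genes, with a median of -0.13. Ctss, which encodes cathepsin S, was the highest called gene of the list there at 1.70 ± 0.10 (edgeR adjusted p = 1.59e-10). Plau, the urokinase gene, was the lowest called in B6-13D2 against B6 at -1.96 ± 0.05 (edgeR adjusted p = 2.32e-15). Of 42 genes of the acute phase and of cytokine signalling that regulates it, 33 were tested. In B6-13D2 against B6, 9 rose and 17 fell, beside 25.4% and 32.9% of all genes, with a median of -0.24; the called genes ran from Osmr, the oncostatin M receptor, at -1.54 ± 0.05 (edgeR adjusted p = 7.19e-14) to Bcl3, an NF-kB cofactor, at 1.04 ± 0.06 (edgeR adjusted p = 1.06e-10). In D2 against B6, 21 rose and 6 fell, beside 29.8% and 30.3%, with a median of 0.33 and C3, complement component 3, the highest called at 1.52 ± 0.23 (edgeR adjusted p = 1.83e-05).

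Markers of other cell types differed between the groups in the same libraries. The 10 stem cell markers were all tested and summed to 5470 to 5770 CPM in B6, 6350 to 6620 in B6-13D2, 3770 to 3860 in D2 and 4680 to 4720 in D2-13B6, so the labelled cell type is seen in every group. The 12 fibroblast markers, of cells such as feeders, summed to 10000 to 10800 CPM in B6, 3290 to 3380 in B6-13D2, 15100 to 18000 in D2 and 8270 to 8620 in D2-13B6. All 12 were higher in D2 than in B6 and all 12 were lower in B6-13D2 than in B6 and than in D2, and no marker was at 0. In D2-13B6 against B6 they split, with 5 called higher and 6 lower. The mean levels of Serpina3n had the same group order as the fibroblast sum, and Serpina3g was also highest in D2 and lowest in B6-13D2. Macrophage and blood markers summed to 34.5 to 38.2, 48.7 to 53.4, 74.3 to 81.5 and 118 to 127 CPM in B6, B6-13D2, D2 and D2-13B6, and all 7 were higher in D2 and in D2-13B6 than in B6. Extraembryonic endoderm markers ran from 209 to 686 CPM over all libraries, and trophoblast markers from 56.4 to 95.2. The lists of other serpins, proteases and acute phase genes, each with more called genes lower than higher in B6-13D2 against B6 and the reverse in D2 against B6, had the same directions as the fibroblast markers. The part of these cells in any of these values was not tested, and in such bulk samples fewer cells of a type and less RNA per cell cannot be told apart. Macrophage and blood markers and Serpina3m were both highest in D2-13B6, while in D2 the markers were above their B6 level and Serpina3m was below. Fibroblast markers and Serpina3m both fell from B6 to B6-13D2, while in D2 the markers were highest and Serpina3m was lowest.

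**Figure D5:**
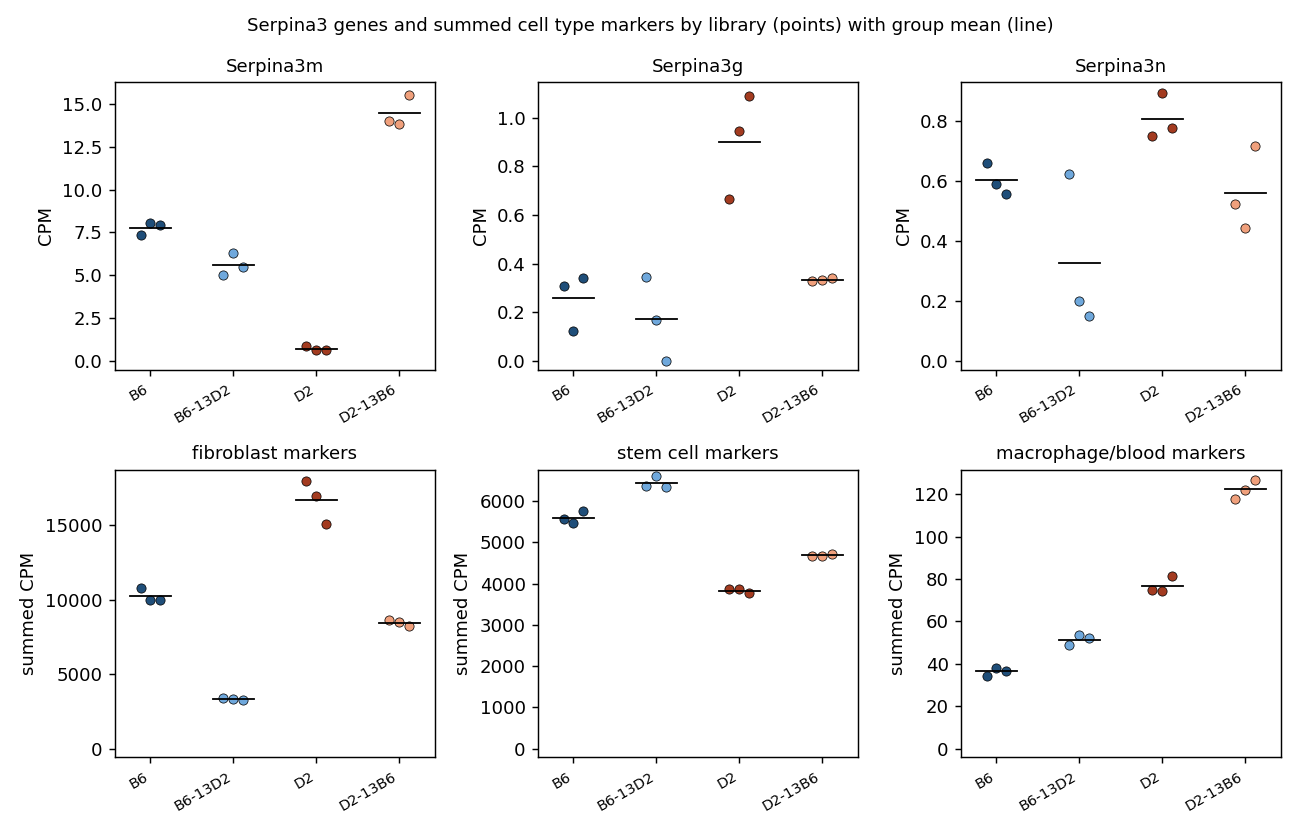
Serpina3m, Serpina3g and Serpina3n (CPM, upper row) and summed fibroblast, stem cell and macrophage or blood markers (summed CPM, lower row); points are libraries and lines group means. Fibroblast markers peak in D2 at up to 18000 CPM, as Serpina3g and Serpina3n do, and Serpina3m is at its lowest there.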

How the data were processed

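RNA was isolated from cultured mouse embryonic stem cells, and mRNA libraries were read from both ends at 150 bases, per the labels' protocols. The authors deposited expected counts, estimated read numbers that can be fractional, for each Ensembl gene and library; the file's own title names EMASE. The submitters' processing notes name mm10, Bowtie 1.0.0 and edgeR 3.34.1, with no role given; filters, annotation and strand use are not given in the sources used here.

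Gene symbols and GRCm38 positions came from GENCODE M21, which held 42462 of 43346 IDs. Expected counts were rounded and tested with edgeR 4.0.16 under R 4.3.3 (filterByExpr, minimum count 10; TMM; quasi-likelihood fit of 4 group means over 12 libraries; Benjamini-Hochberg over 17148 genes). CPM used TMM-scaled totals, and likeness used log2 CPM with a prior count of 2. Groups and replicate numbers came from titles. The test script was first tested on simulated data. Sequences were aligned with MAFFT 7.526. The genes, the lists and the rule for named genes (the listed Serpina3 genes, the 5 most like Serpina3m, the nearest tested neighbours, and the highest and lowest called genes of each list) were chosen with earlier results of these data known; of the list extremes only some are printed. Alternatives were DESeq2 1.42.0, RLE factors, no filter on low counts, a filter at a mean of 1 CPM, a call threshold that also asks for a log2 change of 1, a replicate block, a fit to the compared groups alone, and leave-one-out fits.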

Additional observations from a re-analysis of the deposited data

Results flagged for a closer look

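As a description, the Serpina3m level differed between backgrounds in opposite directions in the groups with the B6 segment and those with the D2 segment. Both directions involve D2 or D2-13B6, the groups on which the gene was selected. Strain and line cannot be told apart, and the part of the chromosome 13 segment in these directions was not tested. Among the groups with the B6 segment, the mean CPM of D2-13B6 was 1.85 times that of B6. Among the groups with the D2 segment, the mean CPM of D2 was 0.129 times that of B6-13D2. Every library of the one group lay beyond every library of the other in both comparisons. The difference between these effects was not tested, since D2 and D2-13B6 supplied the value for which the gene was picked, and 20.6% of the 17148 tested genes showed non-overlapping opposite effects of this kind.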

How the results depend on the processing

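Among 438 alternatives for 25 log2 fold changes of the Serpina3 genes, 2 turned direction, 1 newly passed the threshold and 1 lost it. In 1 more, Serpina3i in D2-13B6 against D2, which was not tested, the size moved to -2.01 with its direction kept. The other 433 kept their direction and, where a test was made, their side of the threshold. Sizes moved more, as given beside Serpina3g, Serpina3i and Serpina3n. Serpina3h in B6-13D2 against B6 turned to -0.16 without B6-13D2 replicate 2 (range over left-out libraries -0.16 to 0.40), and Serpina3n in D2-13B6 against B6 turned to 0.03 without D2-13B6 replicate 2 (-0.32 to 0.03); neither had passed the test. When a log2 change of 1 was also asked for, 0 of the 5 genes were called by edgeR in B6-13D2 against B6, where Serpina3m changed by less, beside 14.5% of all genes; with no demand on size, edgeR and DESeq2 each called 1, and 1 had an unadjusted p under 0.05. With Serpina3g left out, Serpina3h and Serpina3i passed that size in D2 against B6, beside 11.3% of all genes. The same genes passed it in D2-13B6 against B6, beside 11.6%. Serpina3h, Serpina3i and Serpina3n passed it in B6-13D2 against D2, beside 28.1%. When the filter asked for a mean of 1 CPM, 2 genes were called in B6-13D2 against D2 (4 otherwise) and 2 in D2 against B6 (3 otherwise), since fewer genes were tested. Where Serpina3g was tested, the counts under the alternatives include it. It passed the main filter only through D2 and so had to differ where D2 was compared. Leaving out each library gave 1 to 2 called genes in B6-13D2 against B6, 3 to 3 in D2 against B6, 2 to 2 in D2-13B6 against B6 and 3 to 4 in B6-13D2 against D2. With replicate number as a block, 1, 3, 2 and 4 genes were called, as without it; same-numbered libraries did not deviate together (mean correlation -0.011 over 18 pairs, from -0.125 to 0.068; 4 of 12 libraries correlated best with their own number), so the numbers only name samples. RLE factors shifted the median log2 fold change of all genes by at most 0.06, and the share of higher among called genes went from 43.5% to 52% in B6-13D2 against B6, from 49.6% to 56.7% in D2 against B6 and from 41.5% to 49.3% in D2-13B6 against B6. Low counts limit the precision for all of these genes but Serpina3m outside D2.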
